A study of Mus musculus with 6 samples.

Results

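The subject is the nuclear gene set of mitochondrial complex I, measured by RNA sequencing in bone marrow-derived macrophages (BMDMs). Its members are the rows of the deposited table whose symbol is Nduf followed by a, b, c, s, v, ab or af and a number, which gave 46 of 35388 genes read from the table. By symbol, 38 of them are subunits and 8 are assembly factors (Ndufaf). The cells were grown from the femoral marrow of C57BL/6 mice in medium with M-CSF for 7 days, and no genetic change is named for either group. The 3 Ctrl libraries were not stimulated, and the 3 ZA libraries were taken 12 h after stimulation with zoledronic acid (ZA), an amino-bisphosphonate given against bone resorption. The ZA concentration used for these libraries was not given in the sources used here. No label says that the libraries of a group came from separate animals or cultures, so the p-values measure only the spread between these libraries, which may be technical. Values are FPKM, fragments scaled to the length of the gene and the total of the library. Library totals, worked out from the FPKM, lay between 41230600 and 42155808 fragments, and a member had between 99 and 5100 restored fragments in a library.

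Complex I takes electrons from NADH and passes them through a flavin and a chain of iron-sulfur clusters to coenzyme Q, while its membrane arm pumps protons out of the matrix. The N module binds NADH, the Q module reduces coenzyme Q, and the proximal and distal parts of the membrane arm hold the proton channels. The core subunits of the N and Q modules are encoded in the nucleus, those of the membrane arm in the mitochondrial genome, and the supernumerary subunits surround them. Assembly factors bind intermediates during construction and are not part of the finished enzyme. In macrophages the complex is also known as a source of mitochondrial superoxide when electrons flow backwards through it.

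No member differed between ZA and Ctrl at an adjusted p under 0.05 (limma on log2(FPKM + 1) with Benjamini-Hochberg adjustment over 9800 genes), against 36 genes, or 0.367%, of all genes tested, with 0.204% higher and 0.163% lower. Of the 45 members tested, 5 had an unadjusted p under 0.05, where the share of all genes was 12.3%. In this group Ndufb2, Ndufs7 and Ndufb10 were higher in ZA (7.5% of all genes), and Ndufa8 and Ndufb6 were lower (4.85% of all genes). The 5 members are 11.1% of those tested, close to the share of all genes. The counts depended on single libraries, with 6 higher and 1 lower without ZA replicate 1, and 2 higher and 8 lower without ZA replicate 2. Centred on the median of all genes, 2 members were higher and 2 lower. The shares of all genes above are those of the main fit. Shares for these refits are not given here, so the refit counts have no background beside them.

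Promoter sequence, from 250 bases before to 50 bases after the start in RefSeq on GRCm38.p6, was found for 41 of the 46 members. The promoters of 4 of the genes above are shown because they hold 4 different motifs. Motifs of regulators known for respiratory chain genes were searched on both strands. The Ndufb2 promoter (chr6:39592315-39592614, plus strand) holds AAGGTCA, the letters bound by the estrogen-related receptors. The Ndufa8 promoter (chr2:36049289-36049588, minus strand) holds the nuclear respiratory factor 1 (NRF1) core CGCATGCG. The Ndufs7 promoter (chr10:80249199-80249498, plus strand) holds the Yin Yang 1 (YY1) form AAGATGGC close to the start. The Ndufb6 promoter (chr4:40279372-40279671, minus strand) holds the ETS form CCGGAAG, read on the opposite strand. Capitals mark these matches, and each sequence runs 5′ to 3′ on the gene's strand.
Ndufb2: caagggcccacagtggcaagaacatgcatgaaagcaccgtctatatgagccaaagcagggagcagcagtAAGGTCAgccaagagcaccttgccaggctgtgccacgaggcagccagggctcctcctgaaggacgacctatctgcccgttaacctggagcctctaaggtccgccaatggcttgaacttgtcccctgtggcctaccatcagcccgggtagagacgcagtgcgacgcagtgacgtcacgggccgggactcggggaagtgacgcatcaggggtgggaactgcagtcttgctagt
Ndufa8: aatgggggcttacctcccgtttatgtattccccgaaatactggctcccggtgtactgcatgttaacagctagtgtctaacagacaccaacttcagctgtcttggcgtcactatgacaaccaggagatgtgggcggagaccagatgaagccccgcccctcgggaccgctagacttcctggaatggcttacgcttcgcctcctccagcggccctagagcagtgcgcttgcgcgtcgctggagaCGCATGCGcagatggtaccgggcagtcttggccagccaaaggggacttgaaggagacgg
Ndufs7: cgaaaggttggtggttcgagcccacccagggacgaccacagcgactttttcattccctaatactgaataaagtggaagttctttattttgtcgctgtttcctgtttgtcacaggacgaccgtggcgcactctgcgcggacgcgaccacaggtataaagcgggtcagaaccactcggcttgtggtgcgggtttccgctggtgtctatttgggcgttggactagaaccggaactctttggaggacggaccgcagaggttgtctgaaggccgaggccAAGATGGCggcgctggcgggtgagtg
Ndufb6: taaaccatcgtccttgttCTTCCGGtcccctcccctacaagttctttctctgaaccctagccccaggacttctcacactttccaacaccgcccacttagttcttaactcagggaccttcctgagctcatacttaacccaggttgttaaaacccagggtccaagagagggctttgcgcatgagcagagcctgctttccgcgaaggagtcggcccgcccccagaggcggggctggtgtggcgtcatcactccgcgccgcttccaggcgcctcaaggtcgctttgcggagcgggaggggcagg

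Among the 41 members with a promoter, AAGATGGC was found in 8 (19.5%), CCGGAAG in 6 (14.6%), CGCATGCG in 4 (9.76%) and AAGGTCA in 3 (7.32%). Among all 7913 tested genes with a promoter the shares were 6.09%, 22.8%, 4.87% and 3.66%. Over all 27025 genes with a promoter in the RefSeq table they were 3.19%, 9.93%, 2.07% and 5.38%. The YY1 form was found in Ndufa3, Ndufa9, Ndufb8, Ndufc1, Ndufs4, Ndufs6, Ndufs7 and Ndufaf8. The NRF1 core was found in Ndufa8, Ndufa11, Ndufaf4 and Ndufaf5, the ETS form in Ndufb6, Ndufb7, Ndufs3, Ndufs8, Ndufaf1 and Ndufaf8, and AAGGTCA in Ndufb2, Ndufb4 and Ndufs5. Longer and degenerate forms of these motifs were also searched and are not given here. The motifs and their forms were chosen with these promoters in view, and a match describes letters in a window, not binding.

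Ndufb2, a supernumerary subunit of the distal membrane arm, showed the largest difference upwards. Its Ctrl libraries had 13.2, 13.3 and 12.6 FPKM, and its ZA libraries 14.8, 15.3 and 14.3 FPKM. All ZA values lay above all Ctrl values. The log2 difference was 0.17 with a standard error of 0.04, a 95% interval from 0.08 to 0.25, and an adjusted p of 0.113 (limma). Over the alternatives in processing the adjusted p was between 0.0609 and 0.31. Leaving out ZA replicate 1, the library that stood lowest for many subunits, left the log2 difference at 0.17.

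Ndufs7 is the core subunit of the Q module that carries the last iron-sulfur cluster before coenzyme Q. It had 35.0, 36.0 and 38.1 FPKM in Ctrl and 39.0, 39.9 and 39.4 FPKM in ZA. The groups did not overlap, and the ZA libraries lay closer together than the Ctrl libraries, with an SD of 0.443 against 1.58 (n = 3 each). The log2 difference was 0.11 ± 0.03 (SE), with an adjusted p of 0.236 (limma). Ndufb10, a distal membrane arm subunit with cysteine pairs that face the intermembrane space, was at 64.8, 62.0 and 64.4 FPKM in Ctrl and at 65.5, 71.3 and 67.6 FPKM in ZA. Here the lowest ZA library stood just above the highest Ctrl library, and the adjusted p was 0.332 (limma).

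Ndufa8, a proximal membrane arm subunit of the same cysteine-rich kind, was the clearest of the lower members. Its Ctrl values of 58.1, 58.4 and 57.5 FPKM were nearly identical, and its ZA values were 55.6, 53.7 and 53.4 FPKM. The groups did not overlap, the log2 difference was -0.09 ± 0.02 (SE), and the adjusted p was 0.194 (limma). Ndufb6, another distal membrane arm subunit, had the largest difference downwards, with 23.1, 27.8 and 26.5 FPKM in Ctrl and 20.6, 22.6 and 23.4 FPKM in ZA. Its groups overlapped, since Ctrl replicate 1 lay below ZA replicate 3. The log2 difference of Ndufb6 was -0.21 ± 0.07 (SE) with an adjusted p of 0.296 (limma), and without ZA replicate 1 it was -0.16.

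**Figure D1:**
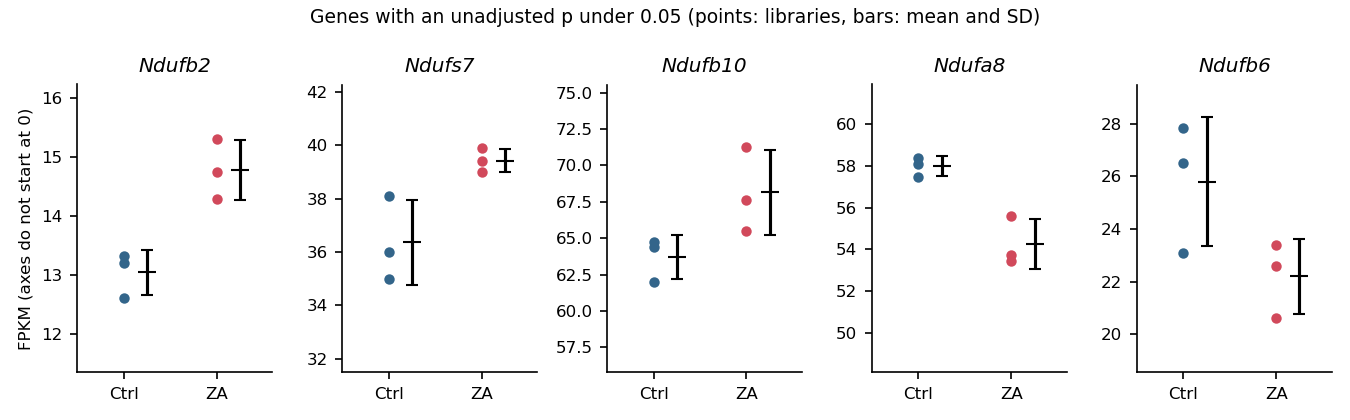
FPKM of the 5 members with an unadjusted p under 0.05, with a point for each of the 3 Ctrl and 3 ZA libraries, and the mean and SD beside them. The vertical axes differ between panels and do not start at 0. Groups overlap for Ndufb6 and not for the other 4.

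Among the 45 members tested, groups that did not overlap were found for 4 members higher in ZA, namely Ndufb2, Ndufs7, Ndufb10 and Ndufv3, and for 2 members lower in ZA, among them Ndufa8. Over all genes tested the shares were 11.4% and 6.76%, and 4 and 2 of 45 members are 8.89% and 4.44%. Ndufv3, a small N module subunit, was at 23.3, 22.7 and 23.4 FPKM in Ctrl and 23.5, 23.8 and 24.2 FPKM in ZA. This separation was small beside the level of the gene, with a log2 difference of 0.04.

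The intervals of the members were compared with bands of fold change, and they cover only the spread between these libraries. All 45 unadjusted 95% intervals lay within a 1.5-fold change in either direction on the log2(FPKM + 1) scale, and 40 lay within a 1.2-fold change. For all genes tested 99.0% and 89.4% of the intervals lay within these bands. The added 1 narrows the fold of genes with few FPKM, which here concerns the assembly factors more than the subunits.

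**Figure D2:**
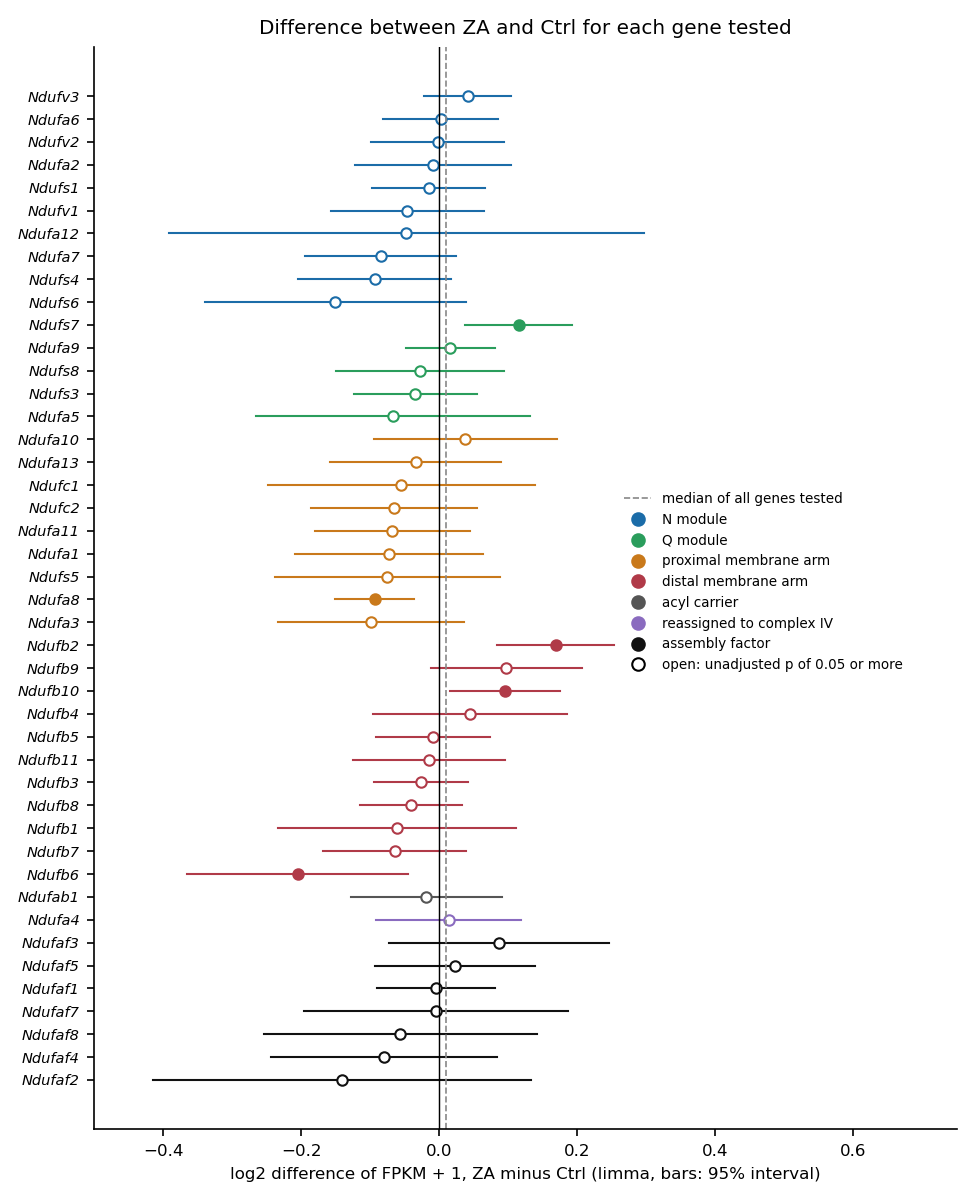
Log2 difference of FPKM + 1 between ZA and Ctrl for 44 of the 45 members tested, ordered within each part of the complex, with unadjusted 95% intervals from limma. Filled points have an unadjusted p under 0.05, and the dashed line is the median of all 9800 genes tested, 0.0100.

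Of the 38 subunits, 28 had a negative log2 difference and 10 a positive one, with a median of -0.0346. All genes tested had a median of 0.0100, with 43.1% of them negative and 56.9% positive. Of the 7 assembly factors tested, 5 were negative and 2 positive, with a median of -0.00494. The gap between the medians, subunits minus assembly factors, was -0.0297 on the log2 scale. The pooled SD of this gap between libraries of a group was 0.0212. Leaving out 1 library turned the gap to 0.00885 (ZA replicate 1) or 0.0199 (Ctrl replicate 1). Without ZA replicate 1 the subunits were at a median of 0.00167, with 19 negative and 19 positive, so the negative sign of the subunit median rested on that library.

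Within the complex the N module had 8 of 10 members negative, with a median log2 difference of -0.0311. The Q module had 4 of 6 negative, with a median of -0.0315. In the proximal membrane arm 8 of 9 were negative, with a median of -0.0685, and the exception was Ndufa10 at 0.04. The distal membrane arm held 7 of 11 negative members, with a median of -0.0156. Of its 11 members, 2 were higher and 1 lower at an unadjusted p under 0.05 (limma), against 7.5% and 4.85% of all genes tested. None of them passed the adjusted limit. Without ZA replicate 1 the medians of these 4 parts lay between -0.00873 and 0.016, and 5 of 10, 3 of 6, 5 of 9 and 5 of 11 members were negative. The 18 subunits outside the rule for named genes, whose Ctrl and ZA values are not given here, had mean levels between 15.5 and 83.7 FPKM. Of them, 15 were negative and 3 positive. Their log2 differences lay between -0.09 for Ndufs4, an N module subunit known from mice that lose it and develop encephalopathy, and 0.04 for Ndufb4, with adjusted p of at least 0.477 (limma).

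The nuclear core subunits of the N and Q modules carry the flavin and the iron-sulfur clusters. Ndufv1, which binds NADH and the flavin, was at 29.3 ± 1.21 FPKM in Ctrl and 28.4 ± 1.81 FPKM in ZA (SD, n = 3 each). Ndufv2, which carries an iron-sulfur cluster beside it, was at 33.0 ± 1.38 and 33.0 ± 1.51 FPKM. For Ndufs1, the largest subunit, the means were 18.8 ± 0.788 and 18.6 ± 0.313 FPKM. Each of these differences was smaller than the spread between libraries of a group. In the Q module Ndufs3 was at 39.2 ± 1.76 and 38.3 ± 1.22 FPKM, and Ndufs8, which holds iron-sulfur clusters ahead of the last one, at 36.1 ± 2.88 and 35.3 ± 0.986 FPKM. The log2 differences of these 5 genes lay between -0.05 and -0.00272, with adjusted p of at least 0.741 (limma), while that of Ndufs7 was 0.236.

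Assembly factors were far less abundant than subunits. The median of the mean FPKM over 6 libraries was 38.3 for the 38 subunits and 4.29 for the 8 assembly factors. The ratio of the medians was 9.03, 9.06 and 7.88 in the Ctrl libraries and 9.43, 9.83 and 8.83 in the ZA libraries. The ranges of the groups overlapped. FPKM divides by a gene length that the authors' annotation set, and restored lengths were over 1.5 times the principal GENCODE M21 transcript for 4 of 45 members, while that transcript was over 1.5 times the restored length for 6 others. The widest gap was that of Ndufb2, with 845 bases in the table's scaling and 4371 bases for the GENCODE transcript. With the GENCODE lengths the ratio of the Ctrl medians was 6.23 in place of 8.44.

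Ndufaf8, which stabilises Ndufaf5, was the most abundant assembly factor and, with the lengths of the table, the one that reached the range of the subunits. With GENCODE lengths the lowest subunit was Ndufb2, at 2.52 FPKM in Ctrl, and 7 of 8 assembly factors lay above it. That count rested on the length of Ndufb2. The next lowest subunit was Ndufab1 at 7.75 FPKM, and of the assembly factors only Ndufaf8, at 11.1 FPKM, lay above it. With the lengths of the table Ndufaf8 was at 15.7, 17.8 and 19.3 FPKM in Ctrl and 16.3, 19.0 and 15.5 FPKM in ZA, with full overlap. Ndufaf3, which works with Ndufaf4 on the early Q module, was at 7.86, 6.57 and 7.09 FPKM in Ctrl and 7.18, 8.37 and 7.45 FPKM in ZA. It had the largest positive log2 difference of the assembly factors, 0.09 ± 0.07 (SE), within the spread of its libraries.

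Ndufaf4 was at 2.94, 2.79 and 2.68 FPKM in Ctrl and 2.47, 2.34 and 3.01 FPKM in ZA, where replicate 3 stood above every Ctrl library and replicates 1 and 2 below. Ndufaf1, part of the assembly complex of the membrane arm, showed nearly the same level in both groups, 6.62 ± 0.109 and 6.60 ± 0.222 FPKM (SD, n = 3 each). Ndufaf2, which binds where Ndufa12 later sits and helps attach the N module, spread most, with 4.96, 4.07 and 5.88 FPKM in Ctrl and 4.70, 3.67 and 4.83 FPKM in ZA. Its log2 difference was -0.14 ± 0.12 (SE), and replicate 2 was the lowest library in both groups.

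Ndufaf5 and Ndufaf7 modify arginines of core subunits of the Q module. Ndufaf5 was at 1.79 ± 0.0194 FPKM in Ctrl and 1.84 ± 0.126 in ZA, and Ndufaf7 at 3.91 ± 0.42 and 3.90 ± 0.45 (SD, n = 3 each). Ndufaf6, needed early in assembly of the membrane arm, stayed under the limit of a mean FPKM of 1 and was not tested. It had 108, 105 and 116 fragments in Ctrl and 100, 100 and 99 in ZA, or 0.602, 0.586 and 0.644 against 0.563, 0.558 and 0.545 FPKM. Every ZA library lay below every Ctrl library, as for 6.76% of the genes tested, and no such share was computed for genes under the limit. The highest ZA library had 100 fragments and the lowest Ctrl library 105, and this difference was not tested. The adjusted p of the 7 assembly factors tested was at least 0.655 (limma).

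**Figure D3:**
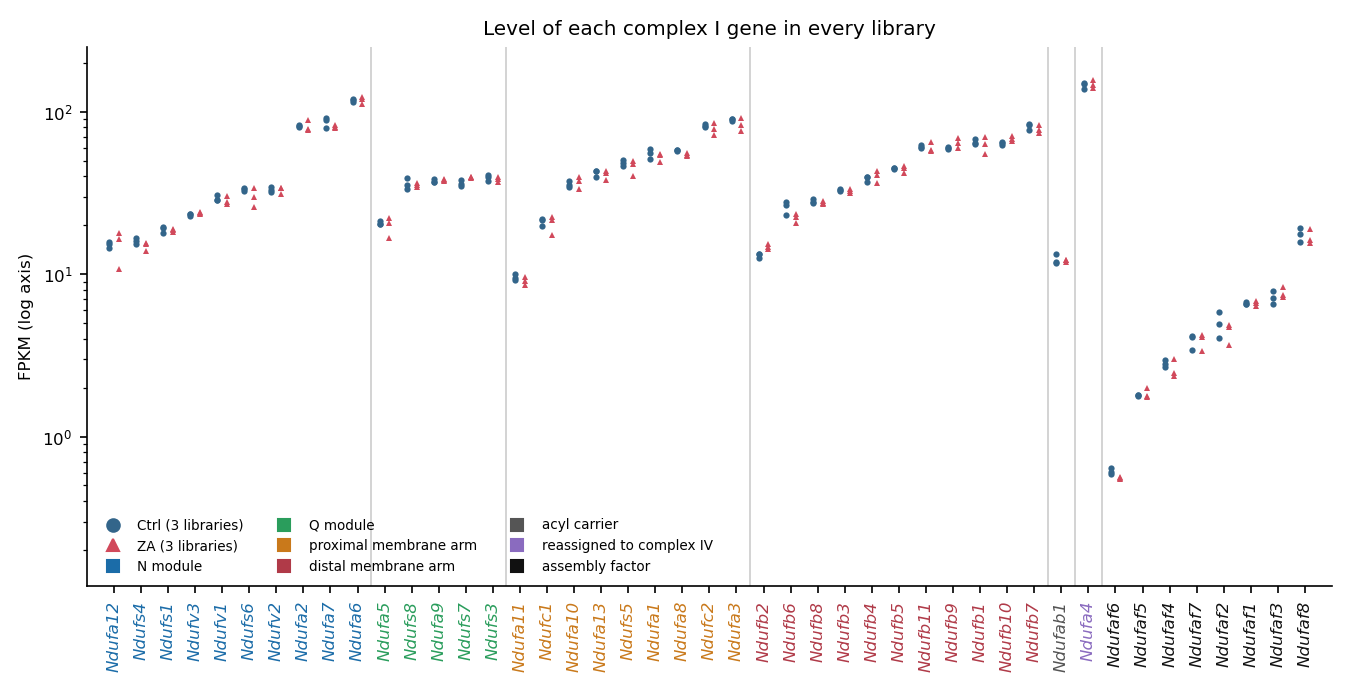
FPKM of 45 of the 46 members on a log axis, with a point for each of the 3 Ctrl (circles) and 3 ZA (triangles) libraries, ordered by level within each part of the complex. Subunits reach from 9.29 to 147 FPKM as means over 6 libraries, and assembly factors from 0.583 to 17.3 FPKM.

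Subunits of one complex were not at one level. Ndufa4, named as a complex I subunit and now counted with cytochrome c oxidase, was highest at 146 ± 6.62 FPKM in Ctrl and 147 ± 8.17 in ZA (SD, n = 3 each). The N module subunit Ndufa6 followed at 117 ± 1.94 and 117 ± 5.87 FPKM, and the proximal arm subunit Ndufa3 at 89.0 ± 1.41 and 83.2 ± 7.85 FPKM. The lowest subunits were Ndufa11, which sits where the parts of the membrane arm meet, at 9.54 ± 0.435 and 9.05 ± 0.534 FPKM, Ndufab1, the mitochondrial acyl carrier protein, at 12.3 ± 0.857 and 12.1 ± 0.265 FPKM, and Ndufb2. The highest and the lowest subunit differed 15.8-fold. The places of Ndufa11 and Ndufb2 depended on their lengths. The length of Ndufa11 was 2661 bases in the table's scaling and 545 bases for the GENCODE transcript. Across the 46 members the rank order of FPKM was nearly the same in all libraries, with a lowest Spearman correlation of 0.991 between libraries, given as a description.

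The subunits differed by library. Against the Ctrl mean, the median subunit was at -0.0744 in ZA replicate 1, 0.0341 in ZA replicate 2 and -0.00357 in ZA replicate 3 on the log2 scale, while the median of all genes tested was between 0.00768 and 0.0126 in these libraries. The assembly factors were at medians of -0.0572, 0.0348 and 0.0517. In ZA replicate 1, 23 of 38 subunits lay below all 3 Ctrl libraries and 5 above, where the shares of all genes were 21.8% and 33.0%. ZA replicate 2 had 6 below and 17 above, against 24.4% and 32.0% of all genes, and ZA replicate 3 had 15 below and 9 above, against 26.1% and 33.2%. Summed over the 38 subunits, the Ctrl libraries held 1768, 1806 and 1792 FPKM and the ZA libraries 1673, 1843 and 1762 FPKM, so ZA held both the lowest and the highest library.

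**Figure D4:**
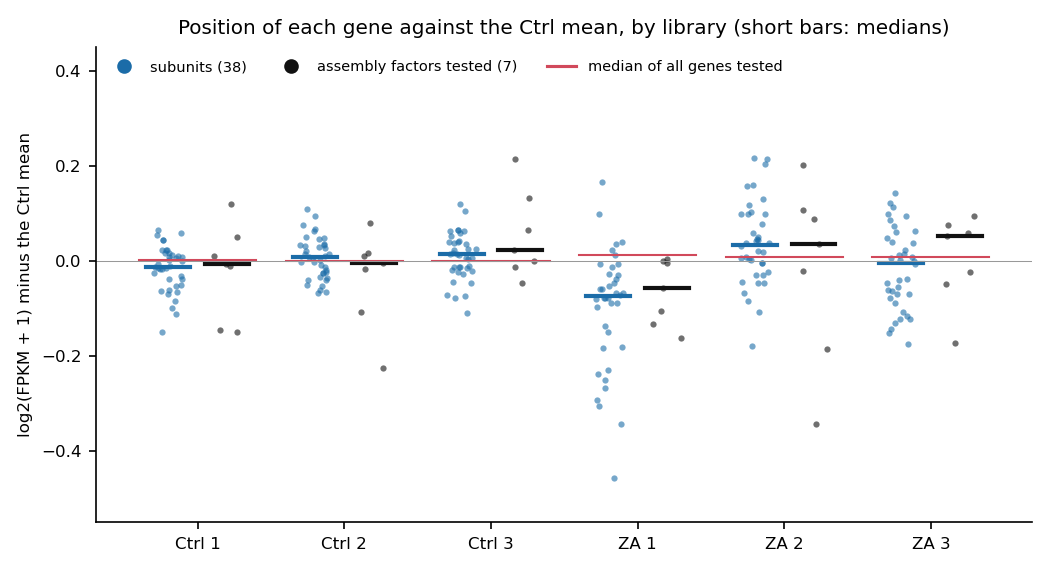
Log2(FPKM + 1) of each member minus its Ctrl mean, by library, for 38 subunits and 7 assembly factors, with short bars at their medians and a red line at the median of all genes tested. The subunit median is -0.0744 in ZA replicate 1 and 0.0341 in ZA replicate 2.

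Single genes showed how wide this was. Ndufa12, the N module subunit that takes the place of Ndufaf2, was picked out after its values were seen and had 689, 665 and 627 fragments in Ctrl and 464, 771 and 718 in ZA. It was the lowest of all libraries in ZA replicate 1 and above every Ctrl library in the other two, with a log2 difference of -0.05 ± 0.15 (SE), and 0.16 without ZA replicate 1. Ndufs6, a zinc-binding N module subunit and the second largest difference downwards, was at 33.4, 32.3 and 33.7 FPKM in Ctrl and 25.9, 34.1 and 29.7 FPKM in ZA. Its log2 difference of -0.15 was -0.05 without ZA replicate 1. Ndufb9, a distal membrane arm subunit, was at 59.8, 60.3 and 59.1 FPKM in Ctrl and 59.5, 69.0 and 63.8 FPKM in ZA, and its log2 difference was 0.10, or 0.15 without that library.

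The length of the genes moved with the values of ZA replicate 1. Subunit genes are short, and 22 of 38 (57.9%) were under 1000 bases in the table's scaling, against 6.18% of all genes tested. In ZA replicate 1 the 11 subunits under 600 bases had a median of -0.136 against the Ctrl mean, and the 27 longer ones had a median of -0.0589. All 175 genes under 600 bases had a median of -0.0384 there, and genes of 2000 bases or more a median of 0.0177. In ZA replicate 2 the short subunits were at 0.0381 and all short genes at 0.0412, and in ZA replicate 3 at -0.0464 and -0.0105. Across the 38 subunits the Pearson correlation of log2 length with the value in ZA replicate 1 was 0.35, and across all genes 0.124, given as a description of genes that share a library. The part of length in the values of the subunits was not tested.

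**Figure D5:**
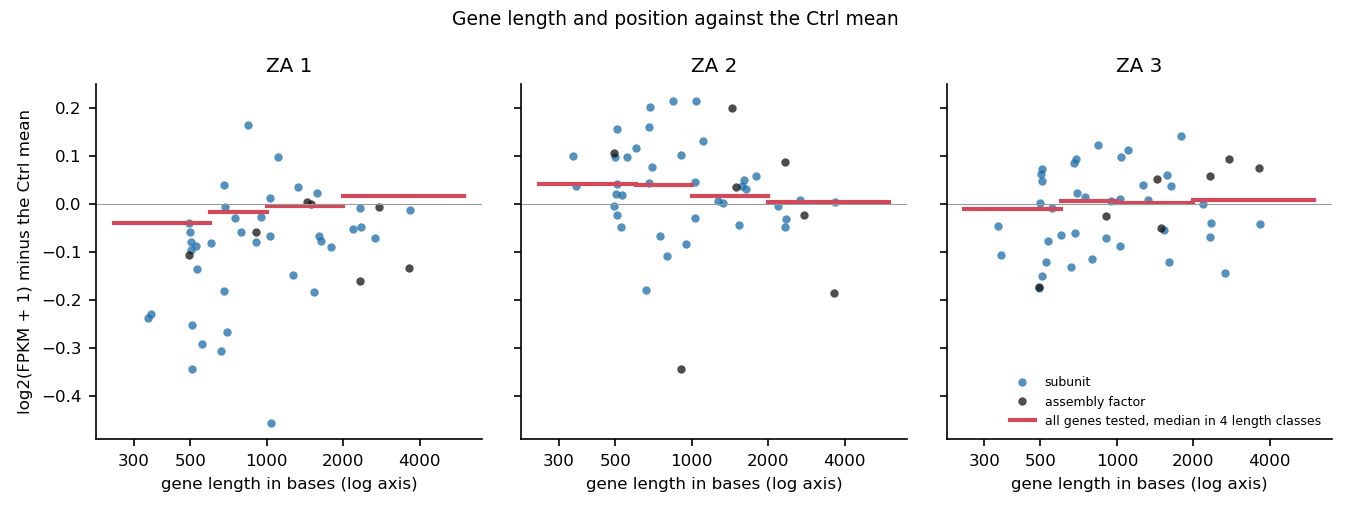
Log2(FPKM + 1) minus the Ctrl mean against gene length on a log axis, in each ZA library, for 38 subunits and 7 assembly factors, with red lines at the medians of all genes tested in 4 length classes, drawn from 250 to 6000 bases. In ZA replicate 1 the subunits under 600 bases have a median of -0.136, and the lowest point is Ndufa12 with 1042 bases.

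Other genes of the respiratory chain were set beside the members. Of 13 further complex I assembly factors, whose symbols do not begin with Nduf, 0 had an unadjusted p under 0.05 by limma, and 6 were positive and 7 negative, with a median log2 difference of -0.000998. Of 8 complex II genes 0 passed that limit, with a median of -0.00211. The share of all genes tested at that limit was 12.3%. The 53 nuclear genes of complexes III to V had a median of -0.00681, with 35 of them negative, or 21 without ZA replicate 1. The 75 mitochondrial ribosomal proteins had a median of 0.0203, with 26 negative, or 24 without ZA replicate 1. The mitochondrially encoded core subunits of complex I were lower in ZA in 7 of 7 genes, against 43.1% of all genes tested. Their median of -0.205 was that of ND4L, with 67 to 122 fragments in a library. The sparse ND3 and ND6 lay lower, at -0.29 and -0.27. The abundant ND1, ND2, ND5 and ND4 lay at -0.18, -0.19, -0.18 and -0.22. ND2 passed the adjusted test, at 1050, 1048 and 1025 FPKM in Ctrl and 910, 943 and 892 FPKM in ZA. Its adjusted p was 0.0453 (limma), and between 0.00287 and 0.229 over the alternatives. The difference between mitochondrially and nuclear encoded subunits was not tested.

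The cells carried the markers of macrophages. All 10 macrophage genes of the list were tested, with 8 positive and 2 negative, and Adgre1, Csf1r, Cd14 and Spi1 had a higher mean in ZA and an unadjusted p under 0.05, with adjusted p of 0.0785, 0.0701, 0.332 and 0.394 (limma). Of 13 neutrophil and progenitor genes 7 were tested and all were lower in ZA, Mpo, Elane, Ngp and Prtn3 at an unadjusted p under 0.05. Beside both lists, 56.9% of all genes tested were positive and 43.1% negative, with 7.5% higher and 4.85% lower at that limit. The summed FPKM of the 13 neutrophil and progenitor genes was 37.8 to 53.4 in Ctrl and 33.8 to 39.1 in ZA, and Ly6g was listed at 0. The summed FPKM of 7 stromal genes was 19.0 to 33.9 in Ctrl and 17.1 to 24.4 in ZA. Of these, Dcn was lower at an unadjusted p under 0.05 (limma). The sum of 6 osteoclast genes was 40.3 to 46.9 in Ctrl and 38.6 to 42.5 in ZA. It was almost all Ctsk and Acp5, at means of 27.5 and 14.8 FPKM over 6 libraries, with Acp5 lower at that limit. Calcr, Ocstamp, Dcstamp and Oscar had means of at most 0.207 FPKM and were not tested. The 8 lymphocyte and 6 dendritic cell genes summed to at most 1.19 and 0.808 FPKM. In bulk RNA, fewer cells of a type and less RNA per cell cannot be told apart, and the part of these cells in the members' values was not tested.

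Some members have close relatives in the table that could share reads. Ndufab1-ps had 26 to 48 fragments, Ndufb4b 6 to 33, Ndufb4c 16 to 30 and Ndufs6b 14 to 28 in a library, and Ndufb11b was listed at 0. The values of Ndufab1, Ndufb4, Ndufs6 and Ndufb11 are uncertain to the extent that the counting split reads between such copies, which the sources used here do not say.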

How the data were processed

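RNA from 6 BMDM libraries, 3 Ctrl and 3 ZA, was sequenced with reads of 150 bases. The labels name both a VAHTS and a SMARTER kit. The deposited file holds FPKM, computed by the authors for each gene and library, and the submitters' processing notes name the genome build mm9. The aligner, the counting program and the annotation are not given in the sources used here. The separators of nearly all deposited rows are lost, 11 of 35434 being intact. Library totals were worked out from the deposited FPKM, and gene lengths and fragments follow from them. The length taken was the shortest that gave whole fragments. Rows were split by the form of the numbers and by whether the 6 FPKM give whole fragments for 1 gene length and these totals. This restored 35388 rows and left out 46, none of them a member. Of the 46 members, 2 had a single reading and 44 were read by whole fragments. The 11 intact rows were read identically, and of 5000 simulated rows 4975 were read exactly, 23 were left out and 2 were misread. There were 0 columns of other samples.

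Groups and replicate numbers came from the labels. The test was limma 3.58.1 (R 4.3.3, eBayes with a trend), two-sided, on log2(FPKM + 1) of the 9800 genes whose mean FPKM was 1 or more, and p-values were adjusted with the Benjamini-Hochberg method. The fit was also run on simulated data with changed genes, whose changes were larger than those seen in the members. It therefore does not address differences of the members' size, and its result is not given here. One alternative ran voom on the restored fragments. The others were a pseudocount of 0.1, no filter, a limit of 5 on the mean FPKM, quantile normalization, centring on the median, no trend in the variance prior, a block for the replicate number, leaving out each library, and GENCODE M21 transcript lengths for levels, the last chosen after seeing the data. Named genes are all assembly factors, the nuclear core subunits, members with an unadjusted p under 0.05, the 3 highest and 3 lowest subunits, the 3 largest differences in each direction, and Ndufa4. One gene under this rule is not reported here. The members, lists and this rule were chosen with earlier results of these data known. Tables and figures were made with Python 3.11.15, NumPy 2.4.6, pandas 2.3.3 and Matplotlib 3.10.9.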

Additional observations from a re-analysis of the deposited data

How the results depend on the processing

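No member passed an adjusted p under 0.05 under any of the 14 alternatives (limma), and the lowest adjusted p of a member was 0.0558. Depth limits members unequally, with as few as 99 fragments of a member in a library. Genes with an adjusted p under 0.05 numbered 36 (20 higher, 16 lower), and 1 (1 and 0) with no filter on low values, 1 (0 and 1) with no trend in the variance prior, 20 (10 and 10) with quantile normalization, and 132 (71 and 61) with voom on fragments. Centred on the median there were 29, with 11 higher and 18 lower. When a library was left out, 0 to 25 genes passed (0 to 14 higher, 0 to 11 lower), with 1 without Ctrl replicate 1, 1 without Ctrl replicate 2, 6 without Ctrl replicate 3, 0 without ZA replicate 2 and 4 without ZA replicate 3. The same-numbered libraries share only a number in the labels. The correlations of their deviations from the group means were 0.284, 0.0393 and 0.280 for numbers 1, 2 and 3, and every library correlated best with its own number, a hint from the data alone. A replicate block gave 78 genes (41 higher, 37 lower), and 4 members higher and 6 lower at an unadjusted p under 0.05, in place of 3 and 2. For this and the other alternatives the share of all genes at the unadjusted limit is not given here. The member counts can therefore not be set against it. Without filter, and with quantile normalization, 3 members were higher and 3 lower. Leaving out a library gave 2 to 6 members higher (6 without ZA replicate 1) and 1 to 8 lower (4 without Ctrl replicate 1, 1 without Ctrl replicate 2, 1 without ZA replicate 1, 8 without ZA replicate 2). The medians then lay between -0.049 and 0.00167 for subunits and between -0.0555 and 0.00895 for assembly factors, and their difference between -0.0351 and 0.0199. With no filter the difference was -0.00699. With GENCODE transcript lengths the level ratio was 6.23. The cause of these changes was not tested. Of 25 named members, 15 kept their direction under every alternative. Ndufa6, at 0.00161, was at -0.0107 centred on the median and -0.00518 with quantile normalization. When a library was left out, the log2 difference ranged from -0.0284 to 0.050 for Ndufa4, -0.0287 to 0.0416 for Ndufa6, -0.0511 to 0.0333 for Ndufab1, -0.0245 to 0.0175 for Ndufaf1, -0.0136 to 0.045 for Ndufaf5, -0.0779 to 0.0732 for Ndufaf7, -0.139 to 0.00895 for Ndufaf8, -0.0488 to 0.00545 for Ndufs1, -0.078 to 0.0317 for Ndufs8 and -0.0281 to 0.0348 for Ndufv2.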
